A study of Mus musculus with 13 samples.

Results

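The genes described here are 45 assembly factors of the large (60S) ribosomal subunit in mouse lung, taken by symbol from a deposited count table of 32544 gene symbols. They comprise MYBBP1A, the PeBoW complex, the PELP1 rixosome, and the GTPases, helicases, methyltransferases and other nucleolar and late factors of the pre-60S particle. The rule that takes them uses their symbols and no measured value, although the set was proposed with earlier results of these data known. All 45 symbols were in the table, all 45 passed the filter on low counts, and all are protein coding genes, spread over 18 chromosomes.

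The ribosome is built mainly in the nucleolus, where RNA polymerase I transcribes a long precursor RNA that is folded, cut and modified while ribosomal proteins join it. The large subunit precursor passes through a series of nucleolar, nucleoplasmic and cytoplasmic particles, and each step depends on assembly factors that bind for a time and are then released by GTPases and ATPases. Several of these factors also link the nucleolus to p53, since disturbed assembly frees the 5S particle to bind the p53 ligase MDM2. MYBBP1A itself binds p53 when it leaves the nucleolus.

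RNA was measured by Quant-seq, a 3' end sequencing of messenger RNA, in whole lung from C57BL/6J wild-type (WT) male mice that were 7 weeks old when bought. A first group of 7 animals breathed 21% oxygen (normoxia) and a second of 6 animals breathed 80% oxygen (hyperoxia), both for 5 days, and the lungs were perfused with cold buffer and flash frozen. The comparison asked which transcripts of the lung change when oxygen is raised. Each library is 1 sample of mixed lung cells, so that more cells of a type and more RNA in each cell cannot be told apart, and p-values measure the spread between these samples.

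Promoter sequences of the genes are shown first as a description, and a part of their motifs in the changes was not tested. RefSeq promoter entries (build GRCm38.p6, from 250 bases before to 50 bases after an annotated start) matched 38 of the 45 genes by symbol, with no entry for Rpf1, Npm1, Mak16, Gnl3l, Gnl2, Bop1 and Rrs1. The E-box CACGTG, the letters bound by MYC with MAX, reads alike on both strands and was present in 9 of 38 (23.7%), compared with 8.09% of 27025 genes with an entry and 11.5% of 9374 tested genes with one. It was found in 5 of 20 genes that rose in hyperoxia (25.0%) and in 4 of 18 that did not pass the test (22.2%). The 5 windows of genes that rose and the 2 of rixosome genes are printed 5′ to 3′ on the strand of the gene, with the E-box in capitals.
Mybbp1a: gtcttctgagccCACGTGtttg
Pes1: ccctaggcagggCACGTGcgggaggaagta
Rpf2: aagtaatcggtaCACGTGcattcgctaagg
Mdn1: gaattccttcacCACGTGtgtgtc
Sdad1: agcggcgtgtccCACGTGccgtttccggtt
Tex10: gcgacctgcggtCACGTGagcgcggcgagg
Pelp1: tttcctgcagacCACGTGtccggcctgcgc

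The Mybbp1a window lies at chr11:72441355-72441376 on the plus strand, with its E-box beginning at position 41 counted from the annotated start. In Pes1 the window is chr11:3963965-3963994 on the plus strand and the motif begins at position 3. The Mdn1 window, chr4:32657145-32657168 on the plus strand, holds it at position 39. The Sdad1 window is chr5:92309986-92310015 on the minus strand, with the motif at position 22. By the RefSeq starts, these positions lie in the transcribed part of the genes.

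Rpf2 has 2 annotated starts, and its minus-strand window at chr10:40246988-40247017 places the motif at position 35 from one and at −26 from the other. For the rixosome genes, Tex10 (chr4:48473449-48473478, minus strand) has an E-box that begins at −3 and spans the start, and that of Pelp1 (chr11:70410243-70410272, minus strand) begins at −229, upstream of the start. The E-box was also present in Nmd3 and Nop2. CCGGAAG, a sequence bound by ETS family factors, was searched on both strands and was present in 16 of 38 genes (42.1%), compared with 9.93% of all genes with an entry and 19.2% of tested genes. Its share was 9 of 20 (45%) among genes that rose and 7 of 18 (38.9%) among the others. Both motifs were held by 3 genes, Rpf2, Tex10 and Nop2, and neither motif is contained in the other.

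Total counts ran from 1607111 to 3387736 in normoxia and from 2029006 to 4540288 in hyperoxia. Hyperoxia replicate 1 stood apart, with correlations of 0.721 to 0.833 with the other libraries, and its median over all genes lay 0.22 below the normoxic mean on the log2 scale. Epithelial markers of lung were present, and 5 of 8 alveolar type 2 markers fell (summed CPM of 12897 to 23827 in normoxia and 3433 to 7496 in hyperoxia). Genes that marked other cells were also lower, namely 2 of 6 for airway (summed CPM of 14516 to 53137 and 232 to 10055), 2 of 8 for endothelium (2908 to 5069 and 1381 to 4952), 5 of 6 for B cells (164 to 225 and 46.9 to 113), 3 of 3 tested for T and NK cells (39.0 to 64.9 and 8.34 to 27.6) and 2 of 6 for cardiac muscle (109 to 343 and 24.1 to 458), and no gene of these lists was higher. Fibroblast (2 higher, 1 lower), macrophage (1 higher, 2 lower), alveolar type 1 (1 higher, 1 lower) and neutrophil (1 higher) lists were mixed. None of the 8 proliferation markers was called by edgeR, although 3 were lower at an unadjusted p of 0.05 and 1 was called in DESeq2 and in limma-voom. Their median log2 fold change was −0.65, with summed CPM of 177 to 202 in normoxia and 122 to 233 in hyperoxia. No marker listed was at 0 in every library, and the part of these shifts in the results was not tested.

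Assembly factors were higher in hyperoxia as a group. Of the 45 genes, 23 rose (51.1%), compared with 11.8% of the 12496 genes tested, and 0 fell, compared with 10.8% (edgeR's quasi-likelihood test, adjusted p of 0.05). No gene of the group was lower at an unadjusted p of 0.05 either, by edgeR, DESeq2 or limma. The fitted change was above 0 in 44 of the 45, with a median log2 fold change of 0.69 (SD between genes 0.43, range −0.01 to 1.94), whereas the median over all genes tested was −0.03 and 47.8% of them lay above 0. In 12 of the 45 (26.7%) every hyperoxic library lay above every normoxic one, compared with 5.6% of genes tested. With an added requirement of a log2 fold change over 1.5, only Gnl3 passed (2.22% of the genes, against 1.55% of those tested). At an adjusted p of 0.01, 15 of the 45 rose, against 6.46% of those tested.

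The shift was visible in each library. The median of the 45 genes, relative to the normoxic mean, ranged from −0.16 to 0.19 in normoxic libraries and from 0.51 to 0.80 in hyperoxic libraries on the log2 scale, so the groups did not overlap. The 45 genes took 0.270% to 0.349% of all counts in normoxia and 0.389% to 0.594% in hyperoxia. Between 34 and 43 of the 45 lay above their normoxic mean in a hyperoxic library. Hyperoxia replicate 1 was the highest hyperoxic library for 21 genes and the lowest for 12. Without it 28 genes rose instead of 23, adding Rrs1, Ddx18, Ppan, Nip7 and Mrto4, and the median log2 fold change was 0.56. The share of all genes that rose was also larger without it, 15.2% in place of 11.8%.

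**Figure D1:**
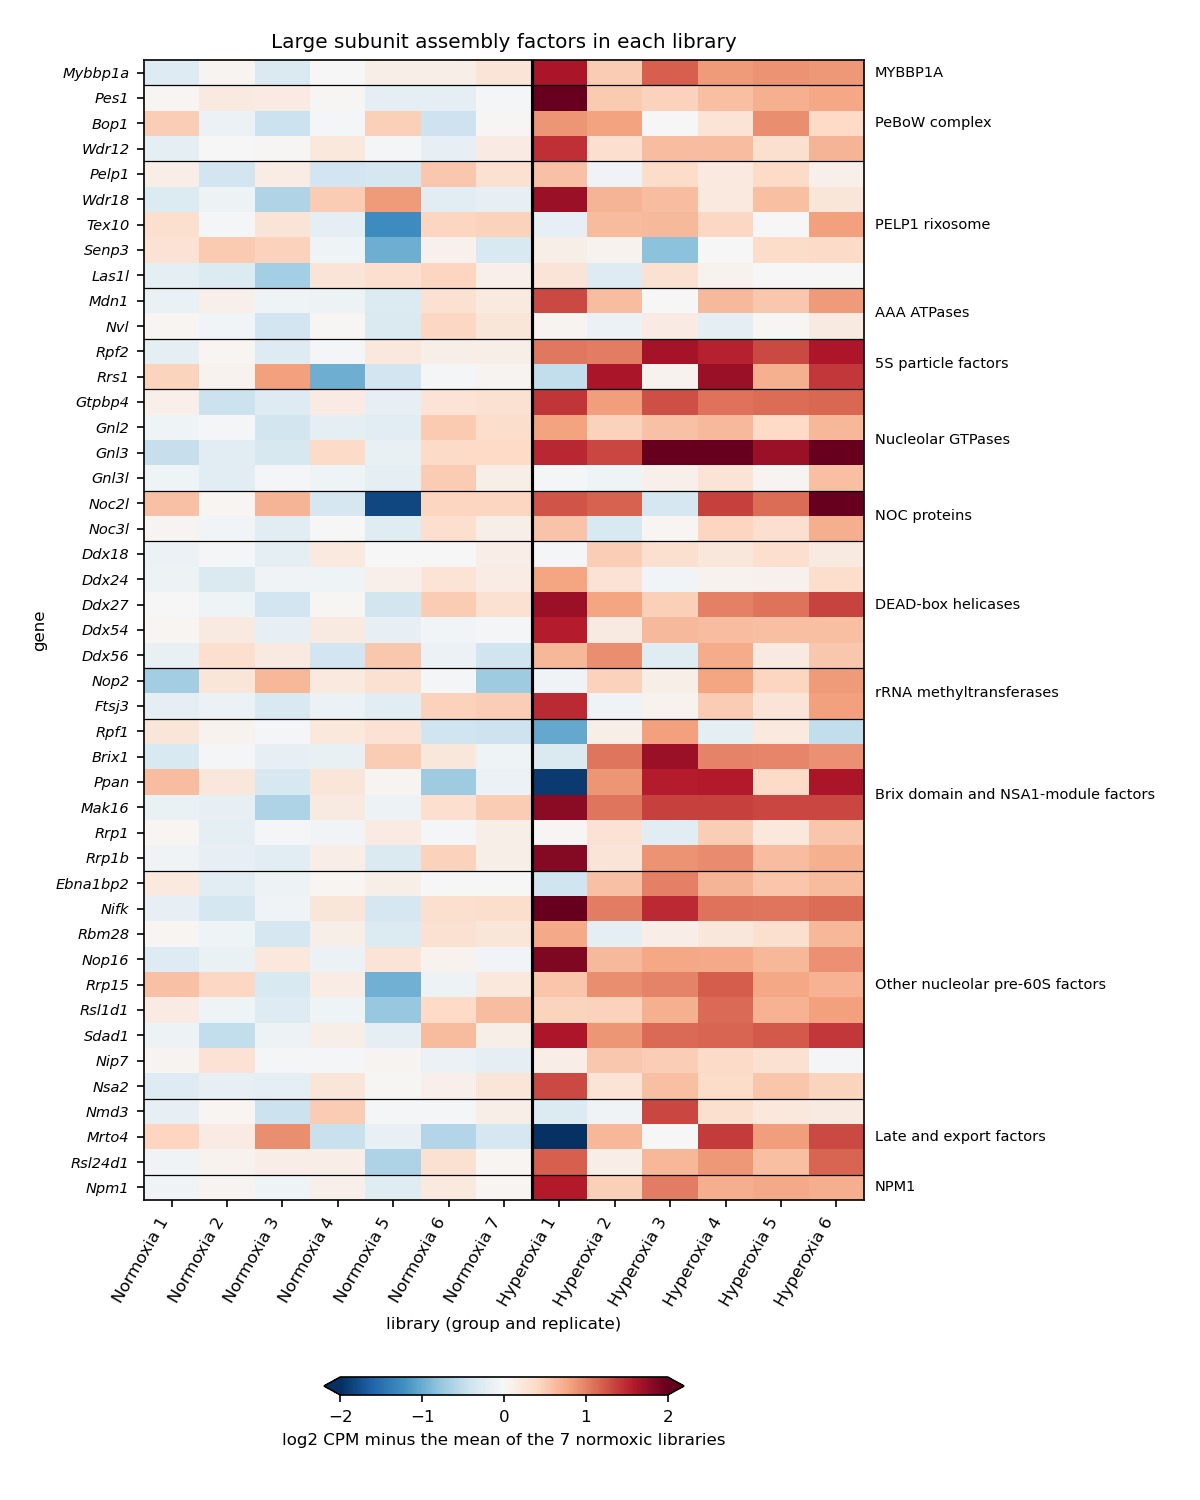
Heat map of log2 CPM of each of the 45 assembly factors (vertical axis, grouped by sub-complex) in each of the 13 libraries (horizontal axis), relative to the mean of the 7 normoxic libraries. Red is above and blue below that mean, and colours stop at 2 in either direction. The 6 hyperoxic columns are mostly red, with medians of 0.51 to 0.80. The highest cells are those of Gnl3 in hyperoxia replicates 3, 4 and 6 (2.28 to 2.32), and the lowest is Mrto4 in hyperoxia replicate 1 (−1.98).

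Mybbp1a (ENSMUSG00000040463) lies at chr11:72441355-72451768 on the plus strand in the GENCODE annotation of the GRCm38 build. MYBBP1A is a nucleolar protein that takes part in ribosomal RNA transcription and processing. Its level was 75.9 to 110.3 CPM in normoxia (median 96.1) and 132 to 289.5 CPM in hyperoxia (median 171), where CPM are counts divided by the TMM-scaled library size. All 6 hyperoxic libraries lay above all 7 normoxic ones. Mybbp1a rose 2.04-fold (95% interval 1.59 to 2.62, log2 fold change 1.03 ± 0.17 SE, edgeR adjusted p = 4.7e-04). Without hyperoxia replicate 1, which was the highest library, the log2 fold change was 0.89. Its exons overlap those of Spns2 on the opposite strand, and Spns2 had a log2 fold change of −0.45 (edgeR adjusted p = 0.43).

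The PeBoW complex, made of PES1, BOP1 and WDR12, is needed to mature the RNA of the large subunit. Of its 3 genes, 2 rose, with a median log2 fold change of 0.72. Pes1 ran from 34.9 to 45.1 CPM in normoxia (median 40.3) and from 55.2 to 160 CPM in hyperoxia (median 63.1). The groups did not overlap, and hyperoxia replicate 1 alone lay above 68.4 CPM. Pes1 rose 1.94-fold (95% interval 1.38 to 2.70, edgeR adjusted p = 0.0069), and its log2 fold change of 0.95 was 0.64 without that library.

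Wdr12 stood at 57.5 to 77.0 CPM in normoxia (median 66.0) and 83.1 to 183 CPM in hyperoxia (median 102), again without overlap. It rose 1.65-fold (95% interval 1.27 to 2.14, log2 fold change 0.72, edgeR adjusted p = 0.0078). Bop1 had few counts, with 5.23 to 10.5 CPM in normoxia (median 7.06) and 7.30 to 14.4 CPM in hyperoxia (median 11.5). Only 3 of 6 hyperoxic libraries lay above all normoxic ones, and the change of Bop1 (log2 fold change 0.59, 95% interval of the fold 1.04 to 2.18) did not pass the test (edgeR adjusted p = 0.10).

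The PELP1 rixosome joins PELP1, WDR18 and TEX10 with the SUMO protease SENP3 and the endonuclease LAS1L, which cuts the spacer RNA between the mature large subunit RNAs. None of the 5 genes taken for it here passed the test in edgeR or DESeq2, 1 (Wdr18) had an unadjusted p under 0.05, and their median log2 fold change was 0.23. Over the other settings that median ran from 0.15 (scaling by library size alone) to 0.36 (without normoxia replicate 6). Wdr18 was the nearest, at 11.5 to 32.5 CPM in normoxia (median 15.8) and 20.5 to 60.6 CPM in hyperoxia (median 27.3). All 6 hyperoxic libraries exceeded the normoxic median but only hyperoxia replicate 1 exceeded every normoxic library. Its log2 fold change of 0.72 (95% interval of the fold 1.08 to 2.52) had an edgeR adjusted p of 0.087. The log2 fold change of Wdr18 was 0.45 (adjusted p = 0.17) without hyperoxia replicate 1. It passed the test without normoxia replicate 5, the highest normoxic library (0.92, adjusted p = 0.036), and with a term for the letter run of the labels (0.80, adjusted p = 0.043).

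The scaffold gene Pelp1 ran from 8.39 to 16.4 CPM in normoxia (median 12.3) and from 10.6 to 17.2 CPM in hyperoxia (median 13.8). Its log2 fold change was 0.23 (95% interval of the fold 0.85 to 1.62, edgeR adjusted p = 0.49), with overlapping groups. That value ranged from 0.17 without hyperoxia replicate 1 to 0.36 without normoxia replicate 6. Tex10 stood at 3.68 to 13.7 CPM in normoxia (median 11.8) and 8.58 to 17.7 CPM in hyperoxia (median 14.3), with a log2 fold change of 0.35 (95% interval of the fold 0.86 to 1.90, edgeR adjusted p = 0.38). Both ranges of Tex10 overlapped widely, and the lowest library held 6 counts.

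Senp3 ran from 3.68 to 11.5 CPM in normoxia (median 8.36) and from 4.17 to 10.5 CPM in hyperoxia (median 8.45). Las1l ran from 31.1 to 67.7 CPM in normoxia (median 53.5) and from 41.6 to 61.5 CPM in hyperoxia (median 51.2). For both genes the hyperoxic range fell inside the normoxic one. The log2 fold changes were −0.01 for Senp3 (95% interval of the fold 0.66 to 1.5, edgeR adjusted p = 0.98) and 0.03 for Las1l (95% interval of the fold 0.78 to 1.33, edgeR adjusted p = 0.93), and both signs turned under other settings. Nol9, the gene of a kinase that works with LAS1L, was counted with the further large subunit factors and is named here after its values were seen. It rose with a log2 fold change of 1.06 (edgeR adjusted p = 0.043). A difference between the rixosome and the other sub-complexes was not tested.

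**Figure D2:**
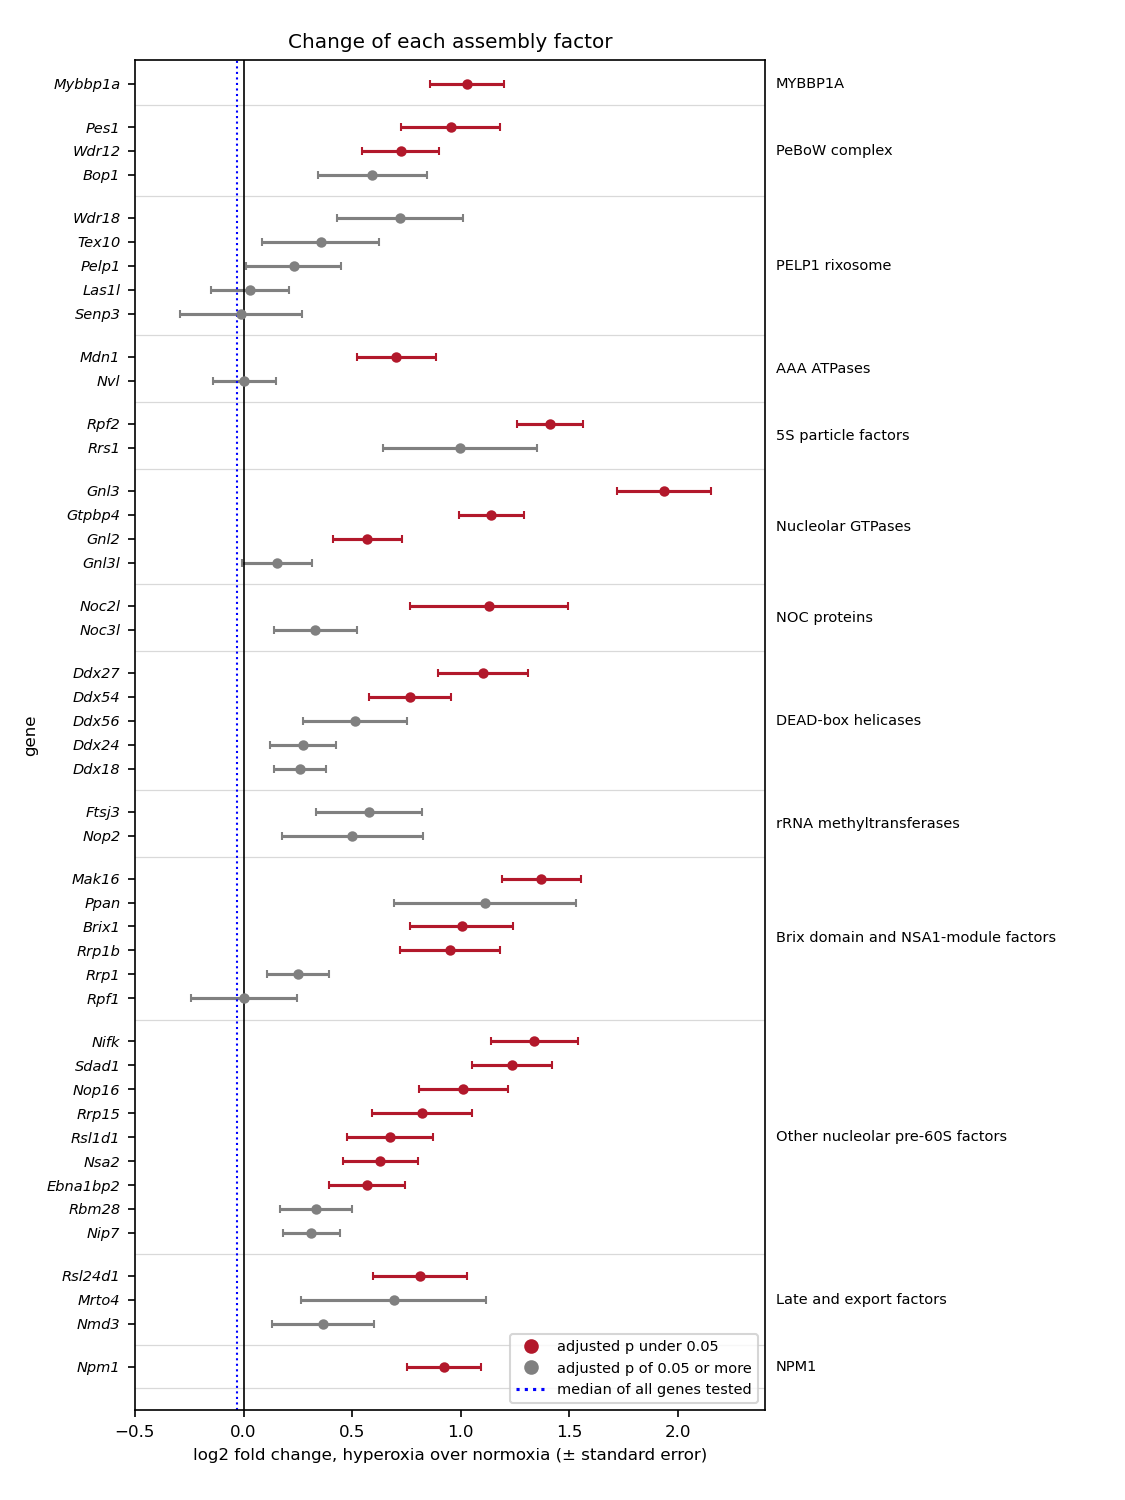
Log2 fold change of hyperoxia over normoxia (horizontal axis, points with standard error bars) for each of the 45 genes (vertical axis), grouped by sub-complex. Red points passed an adjusted p of 0.05 in edgeR, grey points did not, and the dotted line marks the median of all genes tested at −0.03. All 5 rixosome genes are grey, and Gnl3 at 1.94 lies farthest to the right.

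The 5S particle, made of 5S RNA with RPL5 and RPL11, is brought to the precursor by RPF2 and RRS1. Rpf2 stood at 21.9 to 30.6 CPM in normoxia (median 26.9) and 54.0 to 84.8 CPM in hyperoxia (median 72.2), so the lowest hyperoxic library was well above the highest normoxic one. It rose 2.66-fold (95% interval 2.13 to 3.32, log2 fold change 1.41 ± 0.15 SE, edgeR adjusted p = 1.1e-05). Its change was 1.39 in libraries lettered B to M and 1.40 in those lettered O to S. Rrs1 varied more, from 7.06 to 26.2 CPM in normoxia (median 15.2) and from 10.2 to 49.8 CPM in hyperoxia (median 32.2). The change of Rrs1 (log2 fold change 1.00, 95% interval of the fold 1.18 to 3.37) missed the threshold at an edgeR adjusted p of 0.055 and passed it without hyperoxia replicate 1 (log2 fold change 1.18, adjusted p = 0.0075), which held the lowest hyperoxic value.

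Nucleolar GTPases check steps of the pre-60S particle, and 3 of the 4 rose, with a median log2 fold change of 0.85. Gnl3 (chr14:31012433-31019152, minus strand), which encodes nucleostemin, a GTPase named for its high level in stem cells, stood at 29.9 to 54.7 CPM in normoxia (median 37.4) and 106 to 210.0 CPM in hyperoxia (median 172). Every hyperoxic library was above every normoxic one. Gnl3 rose 3.83-fold (95% interval 2.79 to 5.25, log2 fold change 1.94 ± 0.22 SE, edgeR adjusted p = 1.5e-05), the largest change among the 45 genes. The gene holds 3 small nucleolar RNAs on its own strand and overlaps Pbrm1 on the other, which had a log2 fold change of −0.04 (edgeR adjusted p = 0.86).

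Gtpbp4, whose product NOG1 binds the particle from an early step, ran from 100.6 to 167 CPM in normoxia (median 145) and from 243 to 365 CPM in hyperoxia (median 297). It rose 2.2-fold without overlap (95% interval 1.77 to 2.74, log2 fold change 1.14, edgeR adjusted p = 7.0e-05). The annotation names 7 pseudogenes of Gtpbp4, among which reads could be split, so its level is uncertain. Gnl2, the NOG2 GTPase, rose as well (log2 fold change 0.57, edgeR adjusted p = 0.017), and Gnl3l, a relative of nucleostemin, had a log2 fold change of 0.16 (edgeR adjusted p = 0.53), which ranged from 0.067 without hyperoxia replicate 6 to 0.27 without normoxia replicate 6.

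**Figure D3:**
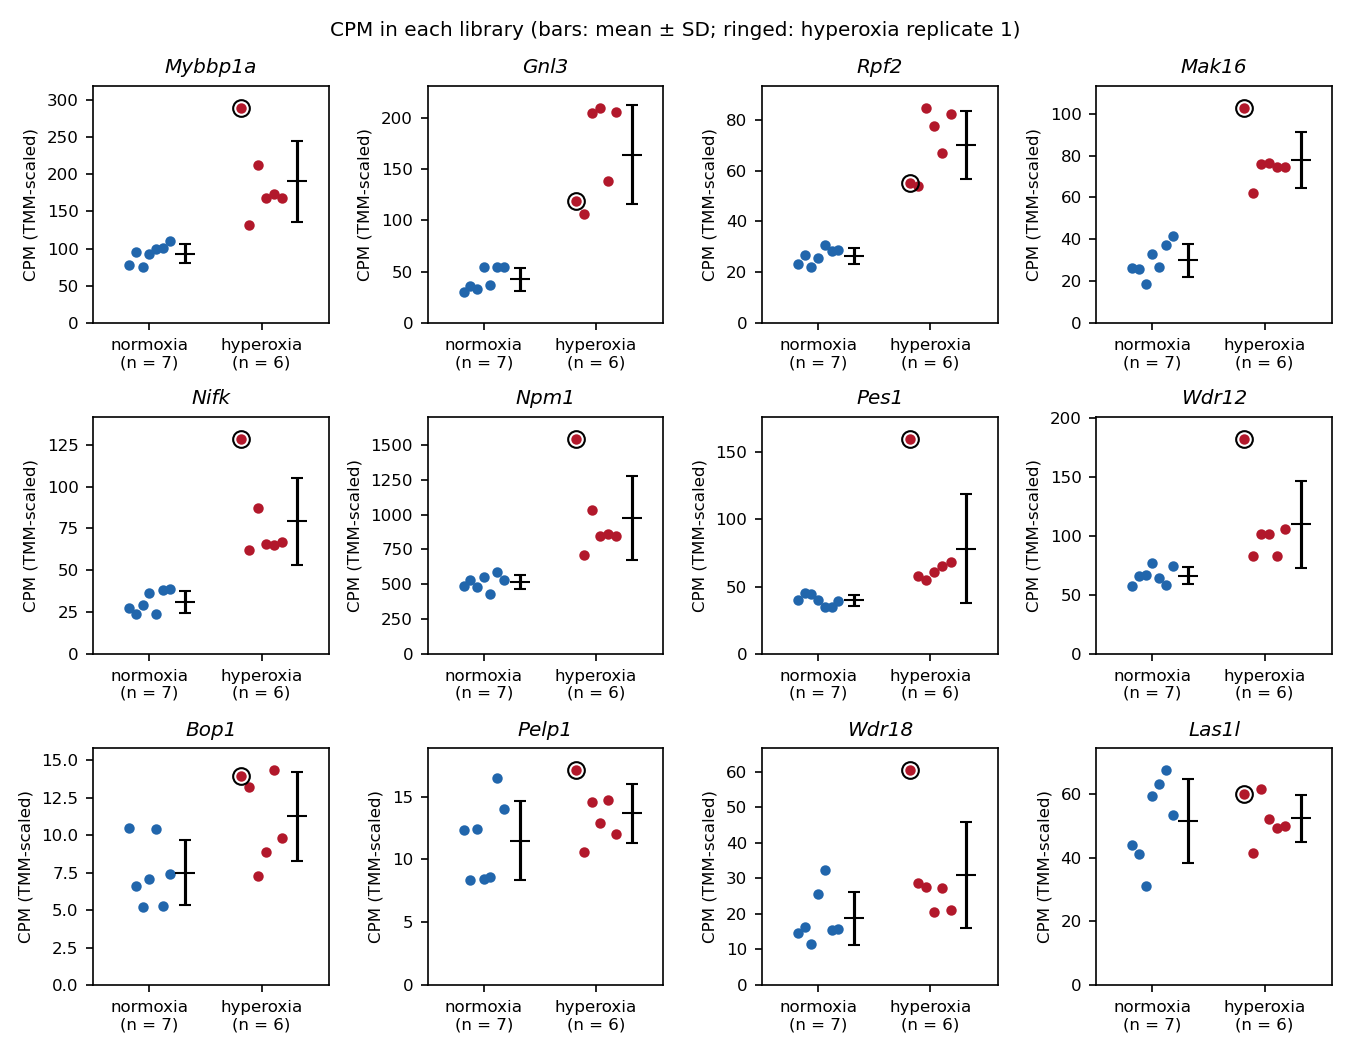
CPM after TMM scaling (vertical axes, from 0) of 12 assembly factors in each of 7 normoxic (blue) and 6 hyperoxic (red) libraries, with black bars for mean ± SD beside the points and a ring around hyperoxia replicate 1. The groups do not overlap for Mybbp1a, Gnl3, Rpf2, Mak16, Nifk, Npm1, Pes1 and Wdr12, and they overlap for Bop1, Pelp1, Wdr18 and Las1l.

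The AAA ATPases pull bound factors off the particle. Mdn1, which encodes the very large ATPase midasin, stood at 42.9 to 64.4 CPM in normoxia (median 49.1) and 51.8 to 130.3 CPM in hyperoxia (median 80.8). It rose 1.63-fold (95% interval 1.25 to 2.13, log2 fold change 0.70, edgeR adjusted p = 0.011), with 5 of 6 hyperoxic libraries above all normoxic ones. Nvl ran from 62.8 to 109 CPM in normoxia (median 83.8) and from 72.4 to 92.9 CPM in hyperoxia (median 84.2). Its hyperoxic range lay inside the normoxic one, with a log2 fold change of 0.00 (95% interval of the fold 0.81 to 1.24, edgeR adjusted p = 0.99).

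NOC proteins accompany early large subunit precursors. Noc2l, whose product also inhibits histone acetylation, was low in normoxia replicate 5 (6 counts) and stood at 3.68 to 23.9 CPM in normoxia (median 19.9) and 11.5 to 67.8 CPM in hyperoxia (median 34.96). The groups overlapped through hyperoxia replicate 3. Noc2l rose 2.19-fold (edgeR adjusted p = 0.035, 95% interval 1.28 to 3.74). The log2 fold change of Noc2l was 1.13, and the call was lost when normoxia replicate 2 (adjusted p = 0.059), normoxia replicate 4 (0.062), hyperoxia replicate 4 (0.054) or hyperoxia replicate 6 (0.099) was left out. It was also lost in limma-voom (adjusted p = 0.071), in limma on the deposited log10 values (0.092), with scaling by total count alone (0.052) and with a term for the letter run of the labels (0.073). Its exons overlap Samd11 on the opposite strand, which was higher too (log2 fold change 0.94, edgeR adjusted p = 0.046), and the counting was not stated to use strand. Noc3l ran from 14.7 to 22.3 CPM in normoxia (median 17.5) and from 14.0 to 29.3 CPM in hyperoxia (median 22.9), with a log2 fold change of 0.33 (95% interval of the fold 0.95 to 1.66, edgeR adjusted p = 0.24).

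DEAD-box helicases unwind RNA in the precursor, and 2 of 5 rose, with a median log2 fold change of 0.51. Ddx27 stood at 21.9 to 41.0 CPM in normoxia (median 28.7) and 40.0 to 95.97 CPM in hyperoxia (median 60.0), with 5 of 6 hyperoxic libraries above all normoxic ones. It rose 2.15-fold (95% interval 1.58 to 2.91, log2 fold change 1.1, edgeR adjusted p = 0.0013). Ddx54 ran from 38.9 to 50.0 CPM in normoxia (median 43.1) and from 49.9 to 132 CPM in hyperoxia (median 67.3), and the ranges touched at their edge.

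Ddx54 rose 1.70-fold (95% interval 1.29 to 2.25, log2 fold change 0.77, edgeR adjusted p = 0.0087), with 0.55 without hyperoxia replicate 1. The other helicase genes did not pass the test in edgeR, with log2 fold changes of 0.51 for Ddx56, 0.27 for Ddx24 (0.16 without hyperoxia replicate 1) and 0.26 for Ddx18, which passed in DESeq2 (adjusted p = 0.046). Both methyltransferase genes were short of the threshold. Ftsj3, which encodes a ribose methyltransferase, stood at 35.3 to 62.2 CPM in normoxia (median 40.4) and 41.6 to 124 CPM in hyperoxia (median 57.9), with a log2 fold change of 0.58 (edgeR adjusted p = 0.10, 95% interval of the fold 1.04 to 2.14). The log2 fold change of Ftsj3 was 0.33 without hyperoxia replicate 1, and it passed the test only narrowly without hyperoxia replicate 2 (0.72, adjusted p = 0.04995). Nop2, which encodes a cytosine methyltransferase of ribosomal RNA, had 4 to 26 counts a library. It stood at 1.49 to 4.91 CPM in normoxia (median 3.36) and 2.68 to 5.69 CPM in hyperoxia (median 4.11), and its log2 fold change of 0.50 did not pass the test (95% interval of the fold 0.88 to 2.28, edgeR adjusted p = 0.30).

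Brix domain proteins and the NSA1 module act on the early nucleolar particle. Of these 6 genes, 3 rose, with a median log2 fold change of 0.98. Mak16 stood at 18.6 to 41.6 CPM in normoxia (median 27.0) and 62.0 to 103 CPM in hyperoxia (median 75.4), without overlap. It rose 2.58-fold (95% interval 1.98 to 3.37, log2 fold change 1.37, edgeR adjusted p = 8.0e-05). Brix1 ran from 32.1 to 57.0 CPM in normoxia (median 37.5) and from 32.7 to 134 CPM in hyperoxia (median 79.7).

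Hyperoxia replicate 1 was the only hyperoxic library of Brix1 inside the normoxic range, and Brix1 rose 2.01-fold (95% interval 1.41 to 2.84, log2 fold change 1.00, edgeR adjusted p = 0.0065). Rrp1b, which binds protein phosphatase in the nucleolus, rose with a log2 fold change of 0.95, and its relative Rrp1 had one of 0.25 (edgeR adjusted p = 0.23). Ppan had a log2 fold change of 1.11 (95% interval of the fold 1.17 to 4.00, edgeR adjusted p = 0.069), with only 2 counts in hyperoxia replicate 1. Without that library it was 1.35 and passed the test (adjusted p = 0.0020). Rpf1, which carries a Brix domain, had a log2 fold change of 0.00 (95% interval of the fold 0.70 to 1.43).

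Among the other nucleolar factors, 7 of 9 rose, with a median log2 fold change of 0.68. Nifk, whose product binds the proliferation antigen Ki-67, stood at 23.8 to 39.0 CPM in normoxia (median 29.1) and 62.4 to 129 CPM in hyperoxia (median 66.2). It rose 2.53-fold without overlap (95% interval 1.89 to 3.39, log2 fold change 1.34, edgeR adjusted p = 2.0e-04). Sdad1, the gene of a nuclear assembly factor, ran from 14.7 to 32.6 CPM in normoxia (median 19.4) and from 38.9 to 64.9 CPM in hyperoxia (median 48.5). It rose 2.36-fold, also without overlap (95% interval 1.79 to 3.09, log2 fold change 1.24, edgeR adjusted p = 2.2e-04).

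The other genes of this class that rose were Nop16 (log2 fold change 1.01), Rrp15 (0.82), Rsl1d1 (0.68), Nsa2 (0.63) and Ebna1bp2 (0.57). Nop16, Rrp15, Nsa2 and Ebna1bp2 encode conserved factors of the nucleolar particle, and RSL1D1 carries a domain like that of a ribosomal protein. Nop16 and Nsa2 also had no overlap between groups. The call of Rsl1d1 was lost without hyperoxia replicate 4 (edgeR adjusted p = 0.056), and that of Ebna1bp2 was lost with scaling by total count alone (edgeR adjusted p = 0.057) and in limma on the deposited log10 values (adjusted p = 0.11). The RNA-binding factor genes Rbm28 (0.33) and Nip7 (0.31) did not pass the test in edgeR, and the log2 fold change of Nip7 passed narrowly in DESeq2 (adjusted p = 0.0498). Nsa2 has 1 named pseudogene in the annotation.

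Late factors hold the places of ribosomal proteins or carry the particle out of the nucleus. Rsl24d1, whose product holds the place of RPL24, stood at 6.74 to 13.4 CPM in normoxia (median 11.2) and 11.7 to 25.2 CPM in hyperoxia (median 18.6), with 5 of 6 hyperoxic libraries above all normoxic ones. It rose 1.75-fold (95% interval 1.28 to 2.41, log2 fold change 0.81, edgeR adjusted p = 0.013). Exons of Rsl24d1 overlap those of the protein coding gene Gm20509 on the same strand. Mrto4, whose product holds the place of RPLP0, ran from 3.90 to 12.4 CPM in normoxia (median 5.51) and from 1.07 to 17.5 CPM in hyperoxia (median 10.9).

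The lowest value of Mrto4 was 2 counts, found in hyperoxia replicate 1, and the annotation names 2 pseudogenes of this gene. Its log2 fold change of 0.69 (95% interval of the fold 0.86 to 3.01, edgeR adjusted p = 0.27) was 0.92 without that library and then passed the test (adjusted p = 0.038). The export adaptor gene Nmd3 had a log2 fold change of 0.36 (edgeR adjusted p = 0.29), which was 0.089 without hyperoxia replicate 3, its highest library. Npm1, which encodes nucleophosmin, an abundant histone chaperone of the nucleolus, stood at 431 to 585 CPM in normoxia (median 528) and 709 to 1546 CPM in hyperoxia (median 856). Npm1 rose 1.90-fold without overlap (95% interval 1.48 to 2.43, log2 fold change 0.92, edgeR adjusted p = 0.0011).

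The library letters in the labels fall into 2 runs that each hold both conditions, B to M (5 normoxic and 3 hyperoxic libraries) and O to S (2 normoxic and 3 hyperoxic). The labels do not call these runs a batch. Within B to M, 43 of the 45 genes lay above 0 with a median log2 fold change of 0.83, and 12 rose (26.7%, against 5.34% of genes tested). Within O to S, 40 lay above 0 with a median of 0.61, and 18 rose (40.0%, against 11% of genes tested). The medians over all genes were −0.01 and −0.00.

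A test of the difference between the runs, the condition by letter run term in edgeR, called 0 of the 45 genes and 0.00% of the 12496 genes. At an unadjusted p of 0.05 it gave 3 of the 45 (6.67%) and 1158 of all genes (9.27%). The 3 genes were Gnl2 (log2 fold change 0.85 in B to M and 0.13 in O to S), Nifk (1.78 and 0.76) and Mrto4 (−0.31 and 1.80). Mybbp1a changed by 1.32 and 0.67, Gnl3 by 1.96 and 1.75, and Npm1 by 1.21 and 0.61 in the same order. Hyperoxia replicate 1 belongs to the first run.

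**Figure D4:**
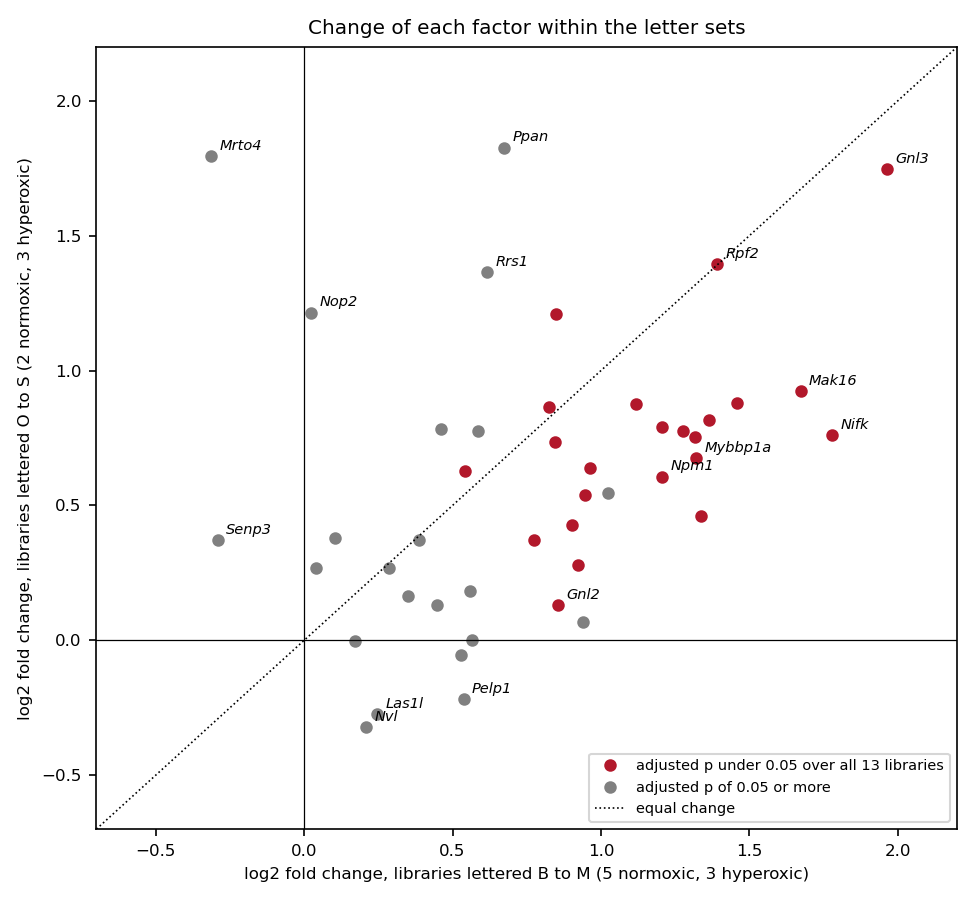
Log2 fold change of hyperoxia over normoxia of each of the 45 genes within libraries lettered B to M (horizontal axis) and within those lettered O to S (vertical axis), with a dotted line of equal change. Red points passed an adjusted p of 0.05 over all 13 libraries. Most points lie in the upper right part, 43 above 0 on the horizontal and 40 above 0 on the vertical axis, and Mrto4 is at −0.31 and 1.80.

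Other genes of the same pathway were examined beside the 45. Of 35 further large subunit factors, 34 were in the table and 31 were tested, of which 15 rose (48.4%, against 11.8% of all genes tested) and 0 fell (against 10.8%), with a median log2 fold change of 0.70. The 3 with the smallest p were Ncl, Rpl7l1 and Lyar. Ncl, which encodes the nucleolar protein nucleolin, stood at 409 to 699 CPM in normoxia (median 492) and 871 to 1271 CPM in hyperoxia (median 1022), with a log2 fold change of 0.99. Rpl7l1, a relative of the ribosomal protein gene Rpl7, had a log2 fold change of 0.97, and Lyar, a nucleolar zinc finger gene, one of 1.21.

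The ribosomal proteins of the large subunit are what the factors assemble. Of 47 such genes tested, 9 rose (19.1%, against 11.8% of all genes tested) and 0 fell (against 10.8%), with a median log2 fold change of 0.11. In hyperoxia replicate 1 several of these genes were very low, so their changes lean on that library. Rpl7a stood at 3.75 CPM there (7 counts), Rpl27 at 1.07, Rpl38 at 16.1 and Rpl39 at 39.7. Their lowest normoxic values were 253, 59.4, 233 and 614 CPM. Others, Rpl5 and Rpl12 among them, had no such low value. With scaling by library size alone 4 of the 47 rose, against 9.44% of all genes, which is near the background. The count was 4 without normoxia replicate 1, 2, 3, 6 or 7, 5 without normoxia replicate 5 or hyperoxia replicate 4 or 5, and 11 without hyperoxia replicate 1. Rpl12 had the smallest p, at 665 to 1024 CPM in normoxia (median 782) and 1293 to 2473 CPM in hyperoxia (median 1741), with a log2 fold change of 1.15. Rplp0, the stalk protein whose place MRTO4 holds, had a log2 fold change of 1.02 and Rpl23 one of 0.73, all without overlap. A difference between this list and the assembly factors was not tested.

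**Figure D5:**
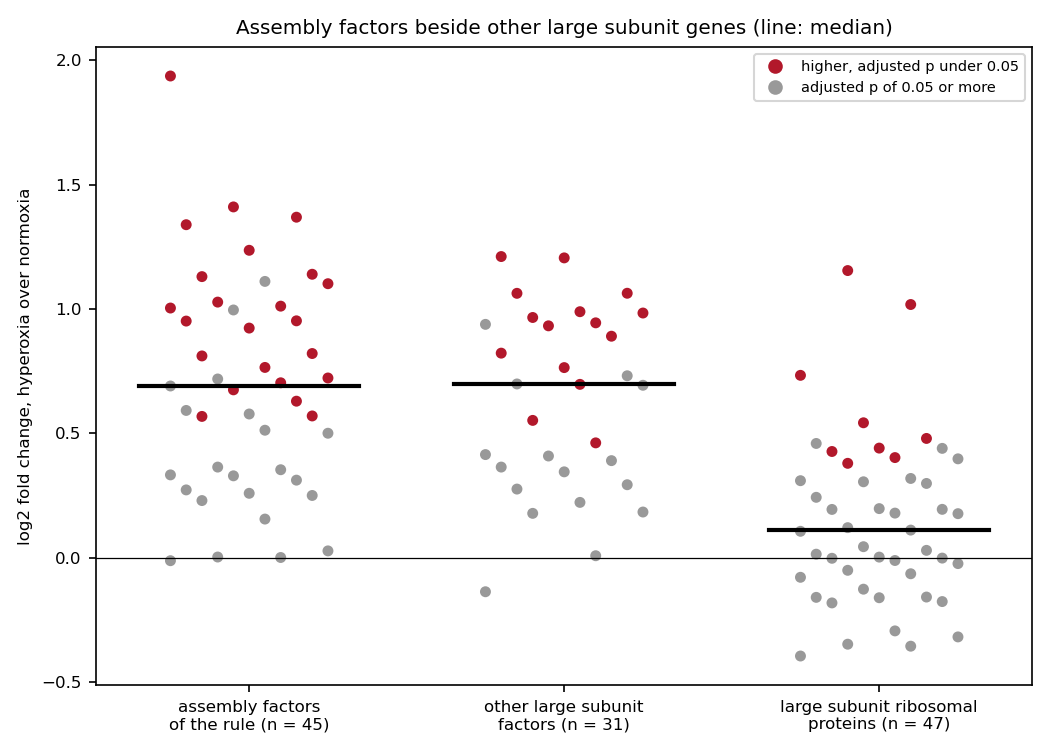
Log2 fold change of hyperoxia over normoxia (vertical axis) of single genes (points) in the 45 assembly factors, 31 other large subunit factors and 47 large subunit ribosomal proteins, with red for an adjusted p under 0.05, grey for the others and a black line at the median. The medians are 0.69, 0.70 and 0.11, and no gene of these lists was lower at the threshold.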

How the data were processed

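Quant-seq libraries of mouse lung were made with a 3' mRNA kit from 7 normoxic and 6 hyperoxic samples. Per the labels, the authors pseudoaligned reads with kallisto (mm10 is named in the submitters' processing notes, with limma 3.54.2) and deposited whole-number counts per gene symbol, without strand being stated. They also deposited log10 values, log10(CPM + 1), used only in an alternative. All columns were mapped to samples (0 were not).

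Library sizes were scaled by TMM and low counts were removed by filterByExpr. Under R 4.3.3, edgeR 4.0.16 (glmQLFTest) then compared the counts, hyperoxia against normoxia without covariates, with Benjamini-Hochberg adjustment over all 12496 genes tested. Standard errors and 95% intervals were derived from the F statistic. Log2 CPM used a prior count of 2, which pulls low genes toward 0. Alternatives were DESeq2 1.42.0, limma 3.58.1, other scalings, filters, thresholds and blocks, and leaving out each library. The edgeR step was checked on simulated data for this comparison with 12335 genes and recovered 100% of 4-fold changes with 5.21% false calls. No 2 libraries of a group agreed within sampling noise (lowest chi-square 3.79 per gene over 36 pairs). Depth was 1607111 to 4540288 counts, no use of molecular identifiers is stated, and intervals do not cover amplification.

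The 45 genes were taken by symbol, and the genes, sub-complexes, pathway and marker lists were chosen with earlier results of these data known. Each of the 45 is named, and CPM ranges are given for Mybbp1a, the PeBoW and rixosome genes, the 2 genes of each other sub-complex with the smallest p, and, as range or change, the 3 of each pathway list with the smallest p. Promoters are RefSeq's (GRCm38.p6), and gene positions and overlaps are GENCODE's. By that annotation 16 of the 45 genes overlap a gene on the opposite strand (15 through exons), and those reads cannot be told apart where counting ignored strand. Another 3 entries, Gnl3, Ppan and Rsl24d1, share exons with a gene on their own strand, which counting by strand would not separate either. Gnl3 is in both sets.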

Additional observations from a re-analysis of the deposited data

Results flagged for a closer look

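In each group the highest and lowest library was compared with its nearest neighbour, for each of the 45 genes, for the total count and for the median of the 45 genes relative to normoxia, which makes 47 measures in each of the 2 groups. Of 94 results examined, 12 stood apart by Dixon's criterion at the 95% level, and about 1 in 20 (4.7) would do so by chance. In 9 of the 12 the library was hyperoxia replicate 1, with the highest CPM of its group for Pes1 (160, next 68.4), Wdr12 (183, next 106), Wdr18 (60.6, next 28.7), Ddx54 (132, next 68.8), Mak16 (103, next 76.5), Rrp1b (85.8, next 46.0), Nifk (129, next 87.2), Nop16 (93.8, next 48.1) and Nsa2 (1267, next 771). Every one of these genes except Wdr18 rose, and each of those 8 also passed the test without this library.

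Normoxia replicate 6 was high for Gnl3l, at 60.5 CPM with 45.8 in the next library. Hyperoxia replicate 3 was high for Nmd3, at 142 CPM with 69.7 in the next library. Normoxia replicate 5 had the lowest total, 1607111 counts, against 2696280 in the next normoxic library.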

How the results depend on the processing

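The count of 23 genes that rose stayed within 1.5 times under DESeq2, limma-voom, limma on the deposited log10 values, scaling by library size alone, both other filters and a letter term, and 0 genes fell in any of them. It was 21 to 28 when 1 library was left out (28 without hyperoxia replicate 1), where 10.1% to 15.2% of all genes rose, 15 at an adjusted p under 0.01 (6.46% of all genes) and 1 with a log2 fold change over 1.5 (1.55%). The median log2 fold change was 0.56 to 0.78 with 1 library left out. Of the 23 genes, 21 passed in every fit with 1 library left out. Of the genes that did not pass, Rrs1, Ddx18, Ppan and Nip7 did so in DESeq2 (27 genes in all, against 14.1% of all genes) and Rrs1 also with no filter. Rrs1 did so without normoxia replicate 3 or hyperoxia replicate 1 or 3, Ddx56 without hyperoxia replicate 3, and Nip7 without hyperoxia replicate 1 or 6. With the replicate number as a replicate block, 13 rose among the 45 genes and 3 among the ribosomal proteins, while the share of all genes that rose was 5.69% in place of 11.8% and the median log2 fold change of the 45 was 0.67. The 10 calls this ended were those of Pes1, Wdr12 (leaving 0 of 3 PeBoW genes), Mdn1, Noc2l, Ddx54, Rrp1b, Ebna1bp2, Rrp15, Nsa2 and Rsl24d1. The labels do not say whether the numbers pair the samples. Correlations of deviations lay between −0.33 and 0.27 over 6 pairs, and unmatched pairs were not examined beside them. Ribosomal proteins that rose numbered 4 under limma on log10 values, library size alone, no filter and a minimum of 10 counts. The shares of all genes that rose in these settings were 8.78%, 9.44%, 7.34% and 14.1%. With 1 library left out the ribosomal proteins that rose numbered 4 to 11, against 10.1% to 15.2% of all genes. The cause was not tested. Further large subunit factors that rose numbered 11 to 18 with 1 library left out, against the same 10.1% to 15.2% of all genes. The letter run term called 0 genes under every setting tried.

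Genes near 0 changed sign. The log2 fold change of Senp3 was 0.0049 in DESeq2, 0.025 without a filter and −0.10 to 0.15 with 1 library left out. Las1l was −0.015 in limma on log10 values, −0.054 by library size alone, −0.039 at 10 counts and −0.041 to 0.12 with 1 library left out. The log2 fold change of Nvl was −0.052, −0.076 and −0.062 in those 3, −0.028 with the letter term and −0.033 to 0.10 with 1 library left out. Rpf1 was −0.055 in limma-voom, −0.16 in limma on log10 values, −0.077 by library size alone, −0.067 at 10 counts, −0.14 with the replicate block and −0.21 to 0.16 with 1 library left out. Limma on log10 values put the median of all genes at −0.16, and library size alone at −0.10, against −0.03. At 10 counts in every library 38 of the 45 genes were tested.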
